A study of Mus musculus with 10 samples.

Results

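Metallothioneins and zinc transporters were followed in liver by the 8 genes Mt1, Mt2, Mtf1, Slc39a4, Slc39a8, Slc39a14, Slc30a1 and Slc30a10, matched by symbol among the 23056 gene rows of the count table. All 8 were found, and all 8 passed the count filter that left 13688 genes for testing. The samples were 4 liver samples of mice labelled IFRD1-KO (KO) and 6 of wild-type (WT) mice, each called a liver here and sequenced once as poly(A) RNA 12 hours after partial hepatectomy, the surgical removal of liver lobes (here the left lateral and median ones) that sets the remaining liver to regrow. All animals had surgery, so every value compares genotypes after it. The labels do not give the knockout's design, the cells it acts in, or the animals' strain, age or sex. The comparison asks which role Ifrd1, the gene of a transcriptional co-regulator, has during regrowth.

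Metallothioneins are small, cysteine-rich proteins that bind zinc, copper and cadmium, and the liver makes much of them during stress, surgery and regeneration. Their genes are switched on by the zinc-sensing transcription factor MTF1, encoded by Mtf1, which binds metal response elements near the start of its targets, and also by glucocorticoids and cytokines. Zinc enters the cytosol through ZIP transporters, the SLC39 family, and leaves it through ZnT transporters, the SLC30 family. ZIP14 (Slc39a14) carries zinc, iron and manganese into hepatocytes and is induced by interleukin-6, and ZIP8 (Slc39a8) carries zinc and manganese. ZIP4 (Slc39a4) is best known as the intestinal importer of dietary zinc. ZnT1 (Slc30a1) exports zinc across the plasma membrane, and the product of Slc30a10 exports manganese.

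The sequences around the starts of Mt1 and Mt2 are shown because these were the members with the lowest KO levels relative to WT. Both genes lie on chromosome 8, on the plus strand of GRCm38, Mt2 (ENSMUSG00000031762.7) at 94172664 to 94173568 and Mt1 (ENSMUSG00000031765.8) at 94179082 to 94180327, with 5513 bases between them. The 250 bases before the RefSeq start of each gene (RefSeq sequence, build GRCm38.p6) read as follows, 5′ to 3′, with matches to the core of the metal response element in capitals (TGCACNC or TGCGCNC on either strand).
Mt1, chr8:94178839-94179088: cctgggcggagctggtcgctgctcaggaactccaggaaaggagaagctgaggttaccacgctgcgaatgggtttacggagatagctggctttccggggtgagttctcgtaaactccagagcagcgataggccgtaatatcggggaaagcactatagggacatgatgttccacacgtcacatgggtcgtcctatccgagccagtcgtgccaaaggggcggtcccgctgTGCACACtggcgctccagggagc
Mt2, chr8:94172368-94172617: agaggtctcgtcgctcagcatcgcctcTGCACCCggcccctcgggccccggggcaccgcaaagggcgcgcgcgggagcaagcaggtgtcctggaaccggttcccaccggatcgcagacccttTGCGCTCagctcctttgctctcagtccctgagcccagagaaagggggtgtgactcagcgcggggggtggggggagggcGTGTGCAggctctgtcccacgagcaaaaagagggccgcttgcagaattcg
The Mt2 window held 3 such matches, at 223 to 217, 128 to 122 and 50 to 44 bases before the start, the last on the opposite strand. The Mt1 window held 1, at 23 to 17 bases before the start. Among 32817 promoter windows of the same length, 21.4% held at least 1 match and 0.771% held at least 3. A match is a run of letters and does not show binding.

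GENCODE M21 places several starts in these genes, and its first Mt1 transcript begins within the last bases of the RefSeq window. Its 229 untranslated first-exon bases (94179082 to 94179310) held 4 further matches, and a TATAAA run followed them. The corresponding 184 bases of Mt2 (94172664 to 94172847) held 3 matches and a TATAAA run. The other GENCODE starts, 94179211 and 94179241 for Mt1 and 94172860 for Mt2, lie after all these matches. For those transcripts the matches lie before the start. The shares over all promoter windows were not counted for such stretches, so they do not rank Mt1 against Mt2. Each match is shown with 5 bases on either side on the plus strand of GRCm38, with capitals marking the core.
Mt1, chr8:94179086-94179102: agctcTGCACTCcgccc
Mt1, chr8:94179104-94179120: aaaagTGCGCTCggctc
Mt1, chr8:94179168-94179184: ctgctGGGTGCAaaccc
Mt1, chr8:94179182-94179198: cccttTGCGCCCggact
Mt2, chr8:94172671-94172687: agggcGTGTGCAggcgg
Mt2, chr8:94172690-94172706: ggggcGCGTGCAtggtg
Mt2, chr8:94172724-94172740: gctttTGCGCTCgaccc
The windows of the other members held at most 2. Of the 6 members with a RefSeq window, Slc30a10 held 2 separate places with a match, 1 of them matched on both strands, Slc30a1 held 1, and Mtf1 held 0. At least 2 such places were found in 4.30% of all windows, where overlapping matches were counted as 1. Slc39a8 had 2 windows, of which 1 held 1 match. Slc39a4 and Slc39a14 had no window in the table. The core of the antioxidant response element (TGACNNNGC) occurred once in the windows of Mt2, Slc30a1 and the other Slc39a8 start, against 10.2% of all windows with at least 1, and 1 more lay in the untranslated first-exon bases of Mt1. The STAT motif (TTCNNNGAA) and the full palindrome of the glucocorticoid response element had no match in any of these windows, and 7.01% and 0.00914% of all windows held them. Most windows thus lack these motifs, and neither was searched for further upstream or in the untranslated first-exon bases. The lack of a match here does not show that such sites are lacking.

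Mt2 was the one member that fell in KO livers beyond the test's threshold. In CPM, counts per 1000000 of a library's total after edgeR's TMM adjustment, Mt2 stood at 477, 361, 489 and 413 in KO replicates 1 to 4, against a lowest value of 576, a median of 1691 and a highest value of 3322 in the 6 WT livers. The highest KO liver lay below the lowest WT liver, which was WT replicate 4, and WT replicate 2 was the highest. The means were 435 ± 59.4 CPM in KO and 1717 ± 907 CPM in WT (SD, n = 4 and 6), a log2 fold change of -1.98 (SE 0.38), or a 3.95-fold lower level (adjusted p = 0.0440, edgeR quasi-likelihood fit, Benjamini-Hochberg over 13688 genes). A two-sided exact permutation test of log2(CPM + 0.5) over the 210 ways to choose 4 of 10 libraries gave p = 0.00952. In liver tissue, less RNA per cell and fewer cells that carry it cannot be told apart.

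The fold change of Mt2 moved little when single libraries were left out, while its side of the threshold did change. The call was lost without KO replicate 1, 2, 3 or 4 (edgeR adjusted p = 0.136, 0.1475, 0.132 and 0.130), and without WT replicate 1, 3, 5 or 6 (edgeR adjusted p = 0.0791, 0.0637, 0.07965 and 0.0652). In these 8 fits the log2 fold change was -2.06 to -1.90, and 0 to 20 genes of the whole table were called. The call held without WT replicate 2 (log2 fold change -1.68) and without WT replicate 4 (-2.16). The direction was the same in each of these fits.

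Mt1, the neighbouring and more heavily counted gene, pointed the same way without passing the test. Mt1 stood at 2076, 1934.5, 1979.8 and 1259 CPM in KO replicates 1 to 4, against a lowest value of 1113, a median of 4580 and a highest value of 6805 CPM in WT. WT replicate 4 was the lowest of all 10 libraries, and the other 5 WT livers, at 3949 CPM or more, lay above every KO liver. The means were 1812 ± 374 CPM in KO and 4551 ± 2044 CPM in WT (SD, n = 4 and 6), with a log2 fold change of -1.33 (SE 0.40, edgeR adjusted p = 0.0824). The exact permutation test gave p = 0.0476. Without WT replicate 4 the log2 fold change was -1.53 and passed (edgeR adjusted p = 0.00159), while without any 1 of the other 9 libraries Mt1 did not pass.

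**Figure D1:**
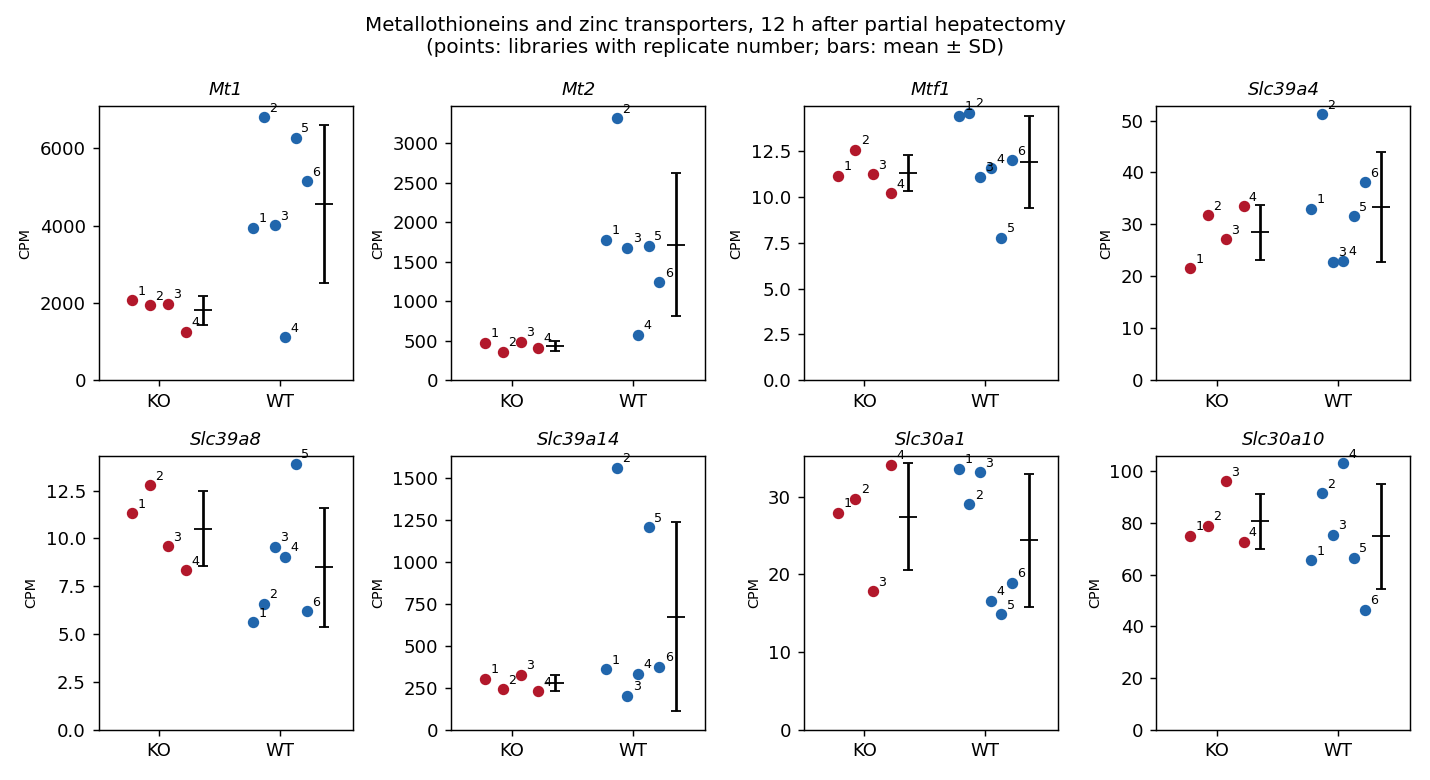
CPM of the 8 members (vertical axis, from 0) in each KO and WT liver, with the replicate number beside each point and mean ± SD as black bars. The 4 KO livers lie below all WT livers for Mt2 and below all but WT replicate 4 for Mt1, where KO replicate 4 is the lowest KO liver. WT replicates 2 and 5 stand above the rest for Slc39a14.

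Read as counts, the pair took 0.227% ± 0.0423 of all counts in KO and 0.616% ± 0.268 in WT (SD, n = 4 and 6; exact permutation p = 0.0333). WT replicate 4 had 0.173%, within the KO range of 0.169% to 0.271%, and the other WT livers had 0.562% to 0.992%. All KO livers thus lay below those 5 WT livers.

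The balance of the metallothionein genes also varied between livers. There were 23.0, 18.7, 24.7 and 32.8 Mt2 counts per 100 Mt1 counts in KO replicates 1 to 4, against 24.1 to 51.8 in WT. WT replicates 5 and 6, at 27.1 and 24.1, lay within the KO range, and WT replicates 1 to 4, at 41.8 to 51.8, lay above it. The log2 ratio of Mt2 to Mt1 averaged -2.04 ± 0.34 in KO and -1.39 ± 0.46 in WT (SD, n = 4 and 6). The difference of -0.65 did not pass (two-sided exact permutation p = 0.0524). Leaving out single libraries gave differences of -0.80 to -0.53, with exact permutation p from 0.0238 to 0.131. The p was under 0.05 only without WT replicate 5 (exact permutation p = 0.0397) or 6 (exact permutation p = 0.0238), the WT livers within the KO range, whose removal widens the gap by construction. WT replicate 4, the lowest WT liver for both genes, had the highest Mt2 share of all 10 libraries.

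Across the 6 WT livers Mt1 and Mt2 were compared over a range set by 2 extreme livers. Pearson's r of their log2(CPM + 0.5) was 0.874 (exact permutation p = 0.0389) and Spearman's rho 0.600 (exact permutation p = 0.242), with adjusted values of 0.0778 and 0.242 over these 2 coefficients by Benjamini-Hochberg. Without WT replicates 2 and 4, the 2 farthest from the Mt1 median, r was -0.278 over 4 livers. The relation over all 6 rests on those samples, and the remaining 4, with a narrower range of Mt1, are too few to test it.

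**Figure D2:**
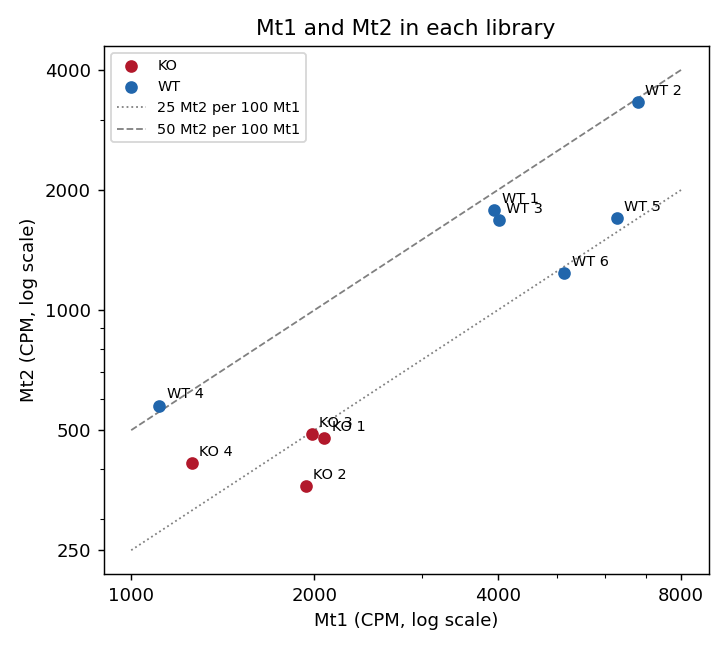
Mt2 against Mt1 in each liver, both in CPM on log axes, with dotted and dashed lines at 25 and 50 Mt2 counts per 100 Mt1 counts. The 4 KO livers sit at the lower left, on both sides of the dotted line, WT replicates 5 and 6 lie close to that line at higher levels, and WT replicate 4 lies at the lower end of the dashed line.

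Counting limits bear on Mt2 more than on Mt1. Of 588 exonic bases of Mt2, 432 also lie in the exon of an antisense gene on the other strand, Gm45774, and the strand setting of the counting is not given in the sources used here. Gm45774 was counted at 69.5 ± 22.4 CPM in KO and 123 ± 44.8 CPM in WT (SD, n = 4 and 6; edgeR adjusted p = 0.125). The level of Mt2 and its ratio to Mt1 are therefore uncertain, and the part of this overlap in the result was not tested. Smaller shares of the exonic bases also lay in a gene on the other strand for Mtf1 (721 of 8907), Slc30a1 (468 of 5244) and Slc30a10 (533 of 5836). The gene that overlaps Mtf1, 1110065P20Rik, had 10.2 ± 1.69 CPM in KO and 10.6 ± 3.07 CPM in WT (SD, n = 4 and 6). The part of these overlaps was not tested either. No 50-base stretch of an Mt1 transcript occurred in a transcript of another gene (0 of 1292), so reads of that length would not be shared between Mt1 and Mt2.

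Mtf1, the gene of the zinc-sensing activator, differed little. It stood at 11.1, 12.6, 11.2 and 10.2 CPM in KO replicates 1 to 4, and in WT at 7.77 (lowest), 11.8 (median) and 14.6 CPM (highest), with the KO livers inside the WT range. The log2 fold change was -0.08 (SE 0.19, edgeR adjusted p = 0.821). A message level says nothing of how much of the protein is bound to zinc.

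Among the zinc importers, Slc39a14 had the widest spread relative to its mean of all 8 members in WT, though not in KO. It stood at 304, 242, 328 and 229 CPM in KO replicates 1 to 4, against 203 (lowest), 367 (median) and 1559 CPM (highest) in WT. WT replicates 2 and 5, at 1559 and 1206 CPM, stood apart from the other WT livers, which lay between 203 and 374 CPM and overlapped the KO livers. The means were 276 ± 47.7 CPM in KO and 673 ± 564 CPM in WT (SD, n = 4 and 6). The log2 fold change of -1.29 (SE 0.55) did not pass (edgeR adjusted p = 0.167), and the exact permutation p was 0.195. Without WT replicate 2 it was -0.85 and without WT replicate 5 -1.04. As a share of the mean, the SD was 17.3% among KO livers and 83.9% among WT livers.

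The other importers of the set were close between genotypes. Slc39a8 stood at 11.3, 12.8, 9.61 and 8.33 CPM in KO replicates 1 to 4, against 5.62 (lowest), 7.81 (median) and 13.9 CPM (highest) in WT, where WT replicate 5 was the highest of all livers. Its log2 fold change was 0.31 (SE 0.26, edgeR adjusted p = 0.460). Slc39a4 stood at 21.5, 31.7, 27.1 and 33.5 CPM in KO replicates 1 to 4, against 22.9 (lowest), 32.3 (median) and 51.3 CPM (highest) in WT. Its log2 fold change was -0.23 (SE 0.23, edgeR adjusted p = 0.555), and the groups overlapped for both genes.

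The exporters gave small differences as well. Slc30a1 stood at 27.9, 29.7, 17.8 and 34.1 CPM in KO replicates 1 to 4, against 14.8 (lowest), 24.0 (median) and 33.6 CPM (highest) in WT. The WT livers fell in 2 sets, replicates 1 to 3 at 29.0 to 33.6 CPM and replicates 4 to 6 at 14.8 to 18.9 CPM, and KO replicate 3 lay with the lower set. Its log2 fold change was 0.17 (SE 0.27, edgeR adjusted p = 0.720). Slc30a10 stood at 75.0, 78.9, 96.1 and 72.7 CPM in KO replicates 1 to 4, against 46.5 (lowest), 71.0 (median) and 103 CPM (highest) in WT, with a log2 fold change of 0.11 (SE 0.20, edgeR adjusted p = 0.768). The groups overlapped for both. For Mtf1 and these 4 transporters a p above the threshold does not show equal levels.

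Set side by side, 1 of the 8 members was called (edgeR, adjusted p under 0.05), and it was lower in KO, while 1.33% of all tested genes were called, 0.563% higher and 0.767% lower. At an unadjusted p under 0.05, 3 of 8 members (Mt1, Mt2 and Slc39a14) stood beside 26.0% of all genes. The KO and WT livers did not overlap in 1 of 8 members and in 6.90% of all genes, and every KO liver lay below every WT liver in that member and in 3.29% of all genes. The median log2 fold change was -0.15 over the members and -0.02 over all genes tested. With WT replicate 4 left out, 2 of 8 members were called, both lower in KO, a share near the 21.4% of all genes called in that fit (10.5% higher and 10.9% lower). DESeq2 called the same 2 of 8 members, Mt1 and Mt2, where it called 11.8% of all genes, 4.23% higher and 7.59% lower. Limma-voom with sample weights also called Mt1 and Mt2, where it called 19.2% of all genes, 10.3% higher and 8.93% lower. Relative to the mean, the spread was smaller in KO than in WT for each of the 8 members, and for 80.3% of all tested genes.

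Per length, in CPM per kilobase of exon, the metallothioneins stood far above the transporters in every liver. In KO livers Mt1 had 1454.5 ± 299.8 and Mt2 740 ± 101 CPM per kb (SD, n = 4), without overlap of their ranges. In WT livers Mt1 had 3652 ± 1641 and Mt2 2919.6 ± 1542 CPM per kb (SD, n = 6), and the ranges overlapped. The exon length used for Mt1, 1.246 kb, was its whole span, since the exons of its transcripts together leave no gap. That of Mt2, 0.588 kb, was only part of its span. How Mt1 and Mt2 compare per kilobase therefore depends on these unlike lengths. Slc39a14 followed at 26.1 ± 4.52 CPM per kb in KO and 63.8 ± 53.5 in WT, above Slc30a10 at 13.8 ± 1.81 in KO and 12.8 ± 3.46 in WT. The ranges of Slc39a14 and Slc30a10 were separate in both genotypes. Slc39a4 (9.16 ± 1.72 CPM per kb in KO, 10.7 ± 3.42 in WT) came next and overlapped Slc30a10 in WT but not in KO. Slc30a1 lay below it at 5.23 ± 1.32 in KO and 4.65 ± 1.63 in WT, without overlap with Slc39a4. Slc39a8 (1.37 ± 0.254 in KO, 1.11 ± 0.404 in WT) and Mtf1 (1.27 ± 0.109 in KO, 1.34 ± 0.281 in WT) were the lowest, overlapped in both genotypes, and changed places between them.

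In the wider transporter families no gene passed the edgeR test. Of 14 ZIP genes 13 were tested and 4 had an unadjusted p under 0.05, against 26.0% of all genes, with 8 fold changes below 0 and a median log2 fold change of -0.08. The ones nearest the threshold were Slc39a6 (1.92 ± 0.480 CPM in KO, 6.27 ± 2.45 in WT, SD, n = 4 and 6) and Slc39a10 (3.38 ± 0.810 CPM in KO, 8.45 ± 3.18 in WT), both with edgeR adjusted p = 0.0541. Slc39a10 is known in mouse to be repressed by MTF1. Its 4 KO livers lay between 2.61 and 4.52 CPM and the lowest WT liver, WT replicate 4, had 4.42 CPM, so the groups overlapped. WT replicate 4 was also the lowest for Slc39a6, at 1.63 CPM, within the KO range of 1.38 to 2.49 CPM. Among the 9 ZnT genes present, 7 were tested and 2 had an unadjusted p under 0.05, with 4 fold changes below 0 and a median of -0.27. Slc30a7, a transporter of the secretory pathway, had a log2 fold change of -0.78 (edgeR adjusted p = 0.0834) and Slc30a9 one of -0.60 (edgeR adjusted p = 0.0892). DESeq2 and limma-voom with sample weights each called these 4 genes lower in KO. Those tools called 11.8% and 19.2% of all genes, 7.59% and 8.93% lower, and limma-voom called 0 in either family. The 4 were chosen after their values were seen.

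**Figure D3:**
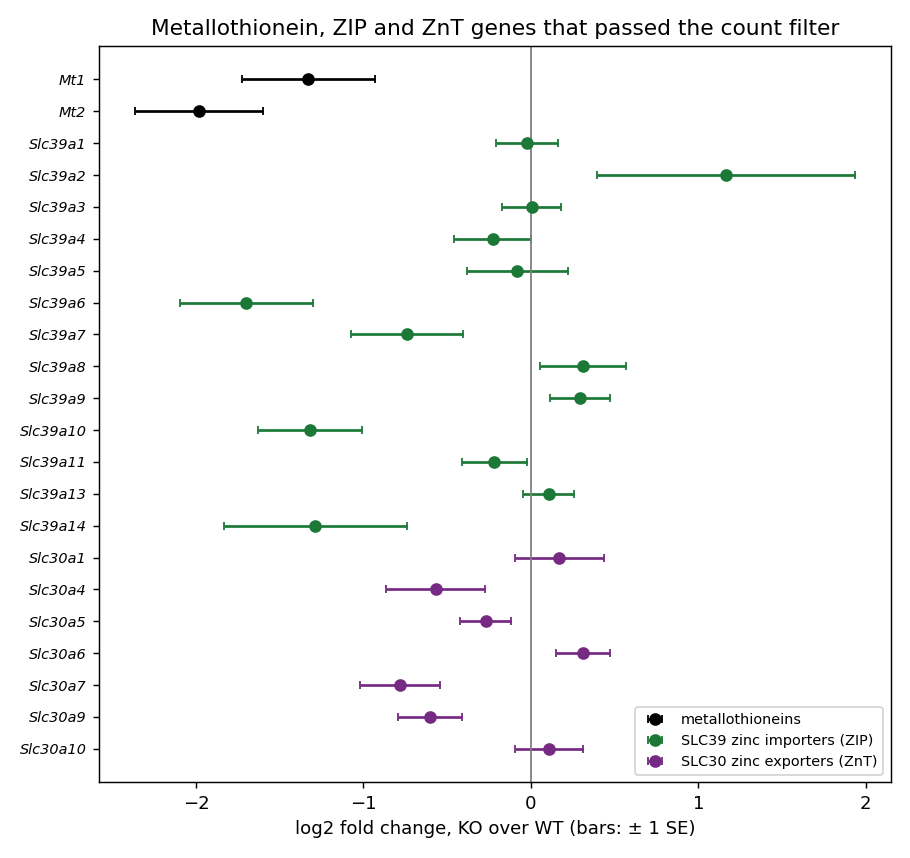
Log2 fold change, KO over WT, with ± 1 SE (horizontal axis) for the tested metallothionein, ZIP and ZnT genes, coloured by family. Mt2 at -1.98 is the one gene of these that passed, and Slc39a6, Slc39a10 and Slc39a14 are the lowest ZIP genes.

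Lists of genes under the other known inducers of metallothionein gave 1 or 0 calls each in edgeR, where 1.33% of all genes were called. They gave more in DESeq2, where 11.8% of all genes were called, 4.23% higher and 7.59% lower. Limma-voom with sample weights called 19.2% of all genes, 10.3% higher and 8.93% lower, and limma-voom called 318 of 13688. An unadjusted edgeR p under 0.05 was found for 26.0% of all genes, and 7060 of 13688 had fold changes below 0. Of 15 glucocorticoid-induced genes, 1 fell and 0 rose (median log2 fold change -0.35): Tat, tyrosine aminotransferase, stood at 918, 676, 1108 and 1438 CPM in KO replicates 1 to 4 and between 1366 and 4361 CPM in WT (edgeR adjusted p = 0.0460), and the groups overlapped through WT replicate 4. Of the 15, 8 had an unadjusted p under 0.05 and 12 had fold changes below 0. DESeq2 and limma-voom with sample weights each called 6 of the 15, all lower, and limma-voom called 1, Tat. Of 20 tested NRF2 and oxidative stress genes, 1 fell and 0 rose (median -0.60): Srxn1, sulfiredoxin, had 65.1 ± 17.2 CPM in KO and 398 ± 190 CPM in WT (SD, n = 4 and 6), with edgeR adjusted p = 0.0440. WT replicate 4, at 68.1 CPM, lay within the KO range of 43.1 to 85.1 CPM. Of the 20, 8 had an unadjusted p under 0.05 and 16 had fold changes below 0. DESeq2 called 7 and limma-voom with sample weights 8 of these genes, all lower, and limma-voom called 1, Srxn1. Of 21 acute phase genes under interleukin-6 and STAT3, 0 were called by edgeR and 2 had an unadjusted p under 0.05. The median of this list was 0.19, with 6 fold changes below 0. DESeq2 called 1, Hamp, higher, limma-voom with sample weights called 2, Hamp and Saa3, both higher, and limma-voom called 0. Of 8 manganese and other divalent metal transport genes 0 were called by edgeR and 2 had an unadjusted p under 0.05. The median here was 0.04, with 4 fold changes below 0. DESeq2 and limma-voom with sample weights each called 1, Tmem165, lower, and limma-voom called 0. In a list of 7 genes tied to MTF1, which holds both metallothioneins, edgeR called Mt2 alone, and the median was -0.54 over genes that MTF1 is known to activate or to repress. DESeq2 and limma-voom with sample weights each called 4 of the 7, Hamp higher and Mt1, Mt2 and Slc39a10 lower. Limma-voom called Mt2 alone. Of the 7, 4 had an unadjusted p under 0.05 and 4 had fold changes below 0.

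The genes whose levels followed the metallothioneins most closely were ranked by Pearson correlation of log2 CPM with the mean of Mt1 and Mt2, among 9428 other genes with a mean of at least 5 CPM. Over the 10 livers the first 6 were Tbrg1 (0.991), Tgfbr2 (0.989), Urgcp (0.986), Adssl1 (0.978), Mtpap (0.977) and Gm6485 (0.975). Over the 6 WT livers alone they were Tgfbr2 (0.988), Tbrg1 (0.987), Wdr43 (0.985), Cltc (0.984), Nt5dc3 (0.984) and Wdr3 (0.984). Tgfbr2, the type 2 receptor of TGF-beta, had 9.48 ± 0.939 CPM in KO and 32.1 ± 16.6 CPM in WT (SD, n = 4 and 6), with edgeR adjusted p = 0.0546. These correlations describe log2 levels over 10 or 6 livers, in which all genes share the depth and sampling of each library, and were not tested. Over the 10 livers the genotypes enter the ranking, and each of the first 6 had a lower mean in KO. Over the 6 WT livers, replicates 2 and 4 were the highest and lowest for both Mt1 and Mt2. The ranking was not repeated without those 2 livers.

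The libraries held 12675838 to 17098012 counts in KO and 12307446 to 14340623 in WT. Ifrd1 was lower in KO, at 19.5 ± 4.38 CPM against 58.7 ± 15.6 CPM in WT (SD, n = 4 and 6; edgeR adjusted p = 0.0258), without overlap. Hepatocyte markers summed to 52460.0 to 62210.0 CPM in KO and 39410.0 to 83960.0 in WT. WT replicate 2, the liver with the highest Mt1, Mt2 and Slc39a14, had the highest sums for macrophages (308 CPM, against 47.6 to 84.8 in KO) and neutrophils (177 CPM, against 6.46 to 17.3 in KO). It stayed highest without Clec4f, the top macrophage marker (201.4 CPM, against 38.6 to 60.9 in KO), and without S100a9, the top neutrophil marker (97.5 CPM, against 4.53 to 11.02 in KO). Its lymphocyte sum of 36.5 CPM, against 1.92 to 3.005 in KO, came from Jchain at 34.3 CPM, and the other 8 lymphocyte markers summed to 2.19 CPM, within the KO range of 1.54 to 2.62. Its hepatocyte sum, the highest of all, held 59960.0 CPM of Alb, and without Alb it was 24000.0 CPM, against 25300.0 to 28390.0 in KO and 19110.0 to 26540.0 over WT. Of the tested markers, 9 of 10 for macrophages and 5 of 5 for neutrophils had fold changes below 0, as had 7060 of all 13688 genes. Of these markers 4 and 3 had an unadjusted p under 0.05, against 26.0% of all genes. EdgeR called 0 of them, where it called 1.33% of all genes. DESeq2 called 1 and 2, where it called 11.8% of all genes, 7.59% lower. Limma-voom with sample weights called 1 and 0, where it called 19.2% of all genes, and limma-voom called 0. No marker of these lists was at 0 in every library, and the neutrophil gene Mpo was at 0 in KO. Sums for the other WT livers were 55.9 to 167 CPM for macrophages and 10.55 to 38.9 CPM for neutrophils. The part of these cells in the levels of the members was not tested, and the Mt2 difference without WT replicate 2 is given above. WT replicate 4 was nearer to the average KO level than to that of the remaining WT livers for 5 of the 8 members and for 69.5% of all tested genes.

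**Figure D4:**
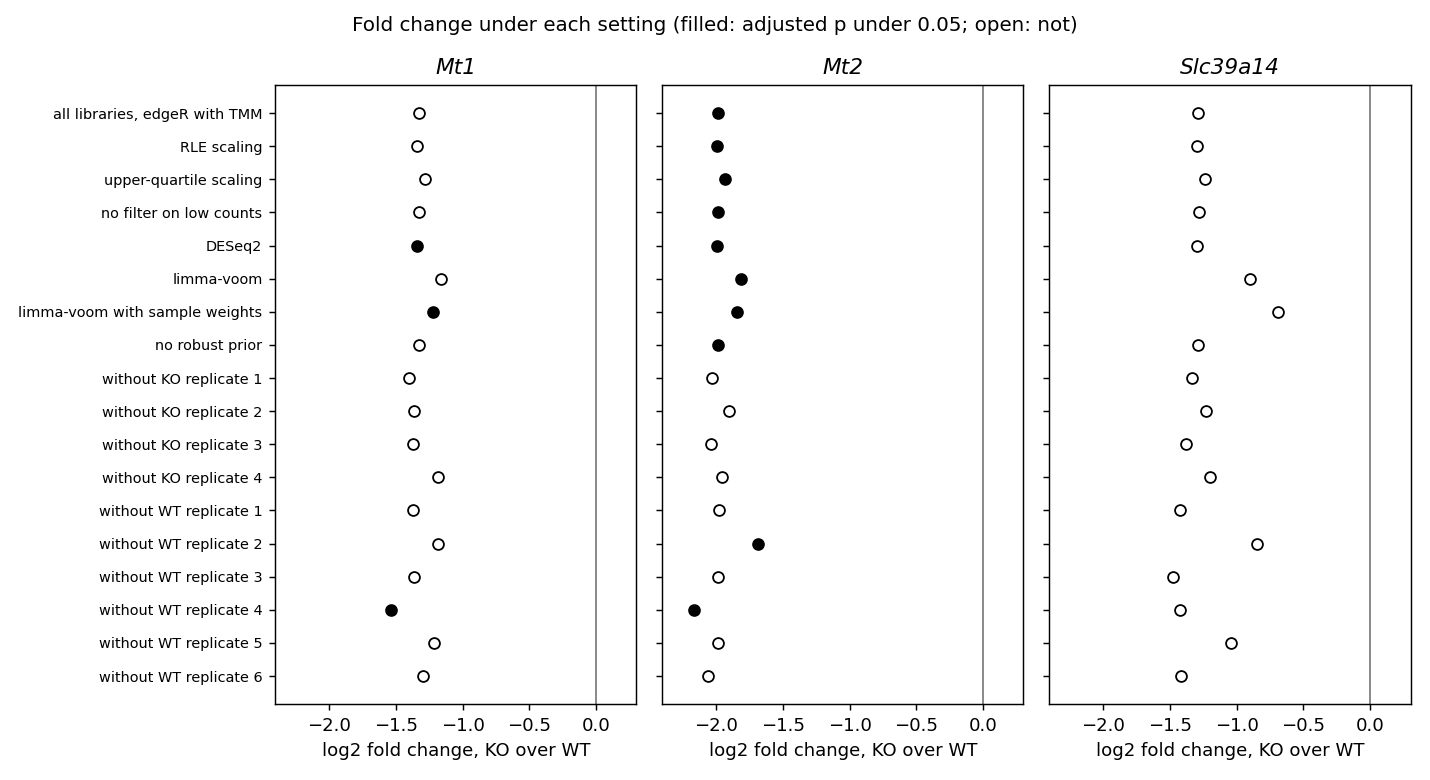
Log2 fold change, KO over WT, of Mt1, Mt2 and Slc39a14 (horizontal axes) under the main fit, other tools and settings, and without single libraries (rows; the fit with replicate numbers as a block is not shown), filled where the adjusted p was under 0.05. All points lie below 0; Mt2 is filled in every fit shown that uses all libraries, and among the fits that leave out a library it is filled without WT replicate 2 or 4, while Slc39a14 is filled nowhere.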

How the data were processed

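The authors deposited 1 table of unnormalized counts, with a row for each gene symbol and a column for each library, and 0 columns were left out. The submitters' processing notes name STAR, HTSeq, DESeq2 and build mm10. The annotation, strand setting and tool versions were not given in the sources used here. Genotype and replicate number came from the sample titles. Whether libraries came from separate animals is not stated in the labels, so p-values reflect only how these libraries vary, which may be technical. Libraries of 1 group differed beyond counting noise in every pair (chi-square per degree of freedom 20.81 to 169.15). The whole table was fitted with edgeR 4.0.16 in R 4.3.3 (quasi-likelihood test, TMM, filterByExpr by group, robust, no covariate), with Benjamini-Hochberg adjustment over 13688 genes and calls under 0.05. CPM are counts over TMM-adjusted library size. The SE is the log2 fold change over the square root of F. Alternatives used DESeq2 1.42.0 and limma 3.58.1. Single values were compared with two-sided exact permutation tests, whose smallest p is 0.00476 for 4 against 6. Gene positions and exon lengths came from GENCODE M21 on GRCm38, the assembly of mm10, in which 96.6% of symbols matched.

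The rule for named genes took the 8 members, Ifrd1, called genes of each list (at most 4) and the 6 genes most like the metallothioneins in each ranking. Other genes were named after their values were seen, or as overlapping genes, markers or list members. Members and lists were chosen with earlier results of these data known. The fits were tested on simulated counts first. Whether same-numbered KO and WT libraries belong together is not stated in the labels and was not settled by their deviations. The main fit did not treat the numbers as pairs, and a fit with them as a block is given below.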

Additional observations from a re-analysis of the deposited data

How the results depend on the processing

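In edgeR with all libraries, 182 genes and 1 of the 8 members (Mt2) were called. DESeq2 called 1618 genes, limma-voom 318 and limma-voom with sample weights 2629. DESeq2 and limma-voom with sample weights each called 2 members (Mt1 and Mt2), and limma-voom called Mt2. Leaving out single libraries, edgeR called 0 to 2893 genes and 0 to 2 members. At 0 called genes (without KO replicate 1, 2 or 3), 2729, 2681 and 2740 genes had an unadjusted p under 0.05. The log2 fold changes of Mt1 (-1.53 to -1.18), Mt2 (-2.16 to -1.68) and Slc39a14 (-1.48 to -0.85) kept their sign in these fits. RLE or upper-quartile scaling, no filter on low counts and no robust prior kept the Mt2 call. Without single libraries, the exact permutation difference of log2(CPM + 0.5) ranged from -1.52 to -0.99 for Mt1 (exact permutation p 0.00794 to 0.131), from -2.09 to -1.58 for Mt2 and from -0.162 to 0.0117 for Mtf1, which turned above 0 without WT replicate 1 (0.00811) or 2 (0.0117). The Mt2 to Mt1 log2 ratio ranged from -0.80 to -0.53. A pseudocount of 2 CPM changed no call. The correlation of Mt1 and Mt2 in WT turned to -0.278 without the 2 farthest libraries.

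With the replicate block, edgeR called 1 gene and 0 members (2929 genes and 2 members at an unadjusted p under 0.05). Mt2 then had a log2 fold change of -1.84 (edgeR adjusted p = 0.136), and Slc30a1 and Slc30a10 turned to -0.0261 and -0.0445. The deviations of same-numbered libraries correlated at 0.179, 0.069, -0.029 and -0.020 for numbers 1 to 4. Those of KO and WT libraries with unlike numbers correlated at -0.164 to 0.087, so the value for number 1 was the highest. Whether same-numbered libraries were handled together cannot be told from these values. The Mt2 to Mt1 log2 ratio over the 4 same-numbered pairs differed by -0.94 (exact permutation p = 0.125, the smallest that 4 pairs allow), so this test could not pass.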

Other observations

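The metallothionein genes next to Mt2 on chromosome 8, Mt3 and Mt4, are known from brain and squamous epithelium and were near the limit of detection. Mt3 had 2 counts in the 4 KO libraries together and 112 in the 6 WT libraries, with 3.54 and 4.02 CPM in WT replicates 5 and 6 and at most 0.463 CPM elsewhere. Mt4 had 2 counts in KO and 115 in WT, with 1.81, 3.97 and 3.09 CPM in WT replicates 2, 5 and 6 and at most 0.306 CPM elsewhere. Both fell under the count filter and were not tested. WT replicates 5 and 6 are also the WT livers with the lowest Mt2 share relative to Mt1.

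Copper, the other metal that metallothioneins hold in liver, is handled by a set of 12 genes, of which 11 were tested and 0 were called by edgeR, with 4 at an unadjusted p under 0.05, against 26.0% of all genes. DESeq2 called 2, Atp7b and Slc31a1, both higher, where it called 11.8% of all genes, 4.23% higher and 7.59% lower. Limma-voom with sample weights called 3, Atp7b, Slc31a1 and Slc31a2, all higher, where it called 19.2% of all genes, 10.3% higher and 8.93% lower. Limma-voom called 0. The fold change was below 0 in 2 of 11, and the median log2 fold change was 0.29. Atp7b, the hepatocyte copper pump that loads bile, stood at 17.9, 15.6, 15.8 and 15.4 CPM in KO replicates 1 to 4 and between 4.39 and 13.1 CPM in WT (edgeR adjusted p = 0.0845). Slc31a1, the copper importer CTR1, stood at 64.8 to 70.7 CPM in KO and 40.2 to 62.6 CPM in WT (edgeR adjusted p = 0.101). Every KO liver lay above every WT liver for both genes, and both were chosen after their values were seen. The groups were separate for 4 of the 11 genes. Slc31a2 was also higher in KO (6.4 to 7.28 CPM, against 2.76 to 5.95 in WT). Sco2 was lower in KO (0.615 to 0.883 CPM, against 0.928 to 2.04 in WT). Among all genes, 944 of 13688 (6.90%) had groups without overlap, and 450 (3.29%) had every KO liver below every WT liver. In the rest of the 944, every KO liver lay above every WT liver. Hamp, the gene of the iron hormone hepcidin, had 3904 ± 182 CPM in KO and 1997 ± 915 CPM in WT (SD, n = 4 and 6; edgeR adjusted p = 0.0977), without overlap.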
